A study of Arabidopsis thaliana with 18 samples.

Results

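The change in gene expression from stage 12 to stage 13 was followed in flowers of the *Arabidopsis thaliana* double mutant *myb21-5 myb24-5*. Of the 18 Affymetrix ATH1 arrays of the study, 5 entered this comparison, picked by the genotype, stage and replicate given in their labels: stage 13 replicates B and C, and stage 12 replicates A, B and C. Stage 12 flowers are the largest closed buds, and stage 13 flowers are the first open flowers of an inflorescence. A further array, labelled as replicate A of *myb21-5 myb24-5* at stage 13, was left out, because it is nearly identical with *arf6-2 arf8-3* stage 13 replicate A. Over all probe sets, the SD of the log2 difference between these 2 arrays was 0.121, whereas pairs of replicates among the 17 arrays kept had SDs between 0.236 and 0.481. The 6 *arf6-2 arf8-3* arrays and the 6 wild-type arrays, with 3 replicates per stage each, were used for comparison. All plants were of the Columbia ecotype, grown in long days without any treatment named in the labels, and whole flowers were harvested in the morning.

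Several features limit these flowers as a model. The *myb21-5* allele carries a premature stop codon and came from a chemical mutagenesis of *arf6-2* plants, from which *arf6-2* was then crossed out, and *myb24-5* is a T-DNA insertion in an intron. Only 1 combination of alleles was measured. The study describes the buds of this double mutant as staying closed when wild-type flowers open, so its stage 13 cannot be read from opening itself, and in the study's photographs the corresponding flower was found by bud size and position. RNA came from whole flowers, hence fewer cells of a type and less RNA per cell cannot be told apart in any value below. The study's methods call the replicates biological, and p-values measure the spread between these arrays only.

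MYB21 and MYB24 are R2R3-MYB transcription factors that act in the last steps of flower development. They lie downstream of the auxin response factors ARF6 and ARF8 and of the hormone jasmonate, whose JAZ repressors bind and inhibit them. Loss of both factors is known to leave petals and stamen filaments short and to delay the release of pollen. Between stages 12 and 13 a wild-type flower completes pollen and embryo sac maturation, extends its petals and filaments, opens, and begins to secrete nectar and scent.

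Array medians lay between 7.71 and 7.78 on the log2 scale on all 18 arrays, and the median log2 change of all 22746 probe sets between the stages of the mutant was 0.03. Stage 13 replicates B and C were the closest pair, with an SD of their log2 difference of 0.236. The 3 stage 12 arrays lay unequally far from them. This SD was 0.379 and 0.374 for stage 12 replicate C against stage 13 replicates B and C, against 0.486 and 0.535 for replicate B and 0.615 and 0.638 for replicate A. An array gives no read depth. Precision is limited by the number of arrays, and the median standard error of a log2 change was 0.15.

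In *myb21-5 myb24-5* flowers, 475 of 22746 probe sets (2.09%) changed between the stages by 2-fold or more with an adjusted p below 0.05, tested with limma and adjusted by the Benjamini-Hochberg method over all probe sets. Of these, 370 (1.63%) were higher and 105 (0.462%) were lower at stage 13. The changes of the 105 were larger, with a median log2 change of -2.12 against 1.65 for the 370. A single gene could be named for 282 of the probe sets that rose and for 59 of those that fell. For all 475, every array of one stage lay above every array of the other, while over all probe sets the stages did not overlap in 20.9% with stage 13 higher and in 17.7% with stage 13 lower. Among the 3 stage 12 arrays, replicate C lay nearest to stage 13 for 309 of the 370 (83.5%) and for 96 of the 105 (91.4%). Measured from the mean of replicates A and B, it stood a median of 25.7% and 37.1% of the way to stage 13. The counts without this array were 428 higher and 227 lower. They were 202 and 36 without stage 12 replicate A, 169 and 38 without stage 12 replicate B, 126 and 20 without stage 13 replicate B, and 54 and 9 without stage 13 replicate C.

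**Figure D1:**
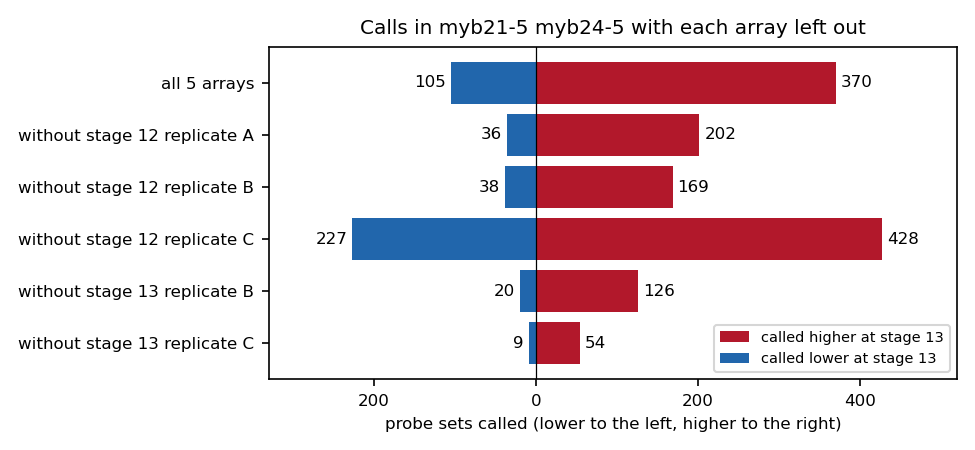
Number of probe sets called in *myb21-5 myb24-5* with all 5 arrays and with each array left out in turn; bars to the right count probe sets higher at stage 13 and bars to the left those lower. The counts run between 54 and 428 higher and between 9 and 227 lower, and they are greatest without stage 12 replicate C.

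The largest rise of a named gene was that of *SCPL38* (*At2g05850*), a serine carboxypeptidase-like gene. Its log2 expression values were 11.33 and 11.38 on the stage 13 arrays (B, C) and 6.40, 6.67 and 7.94 on the stage 12 arrays (A, B, C). The stages did not overlap, and replicate C was the highest of the stage 12 arrays (log2 change 4.35, SE 0.55, 20.3-fold, adjusted p = 0.00119). *At1g67640*, annotated in the study's tables as a putative lysine and histidine specific transporter, had 10.39 and 10.44 at stage 13 against 6.17, 5.79 and 6.44 at stage 12. Here the 3 stage 12 arrays lay close together (4.28, SE 0.43, 19.5-fold, adjusted p = 0.00026). *At5g20390* had 9.77 and 9.90 at stage 13 against 5.47, 5.53 and 6.32 at stage 12 (4.06, SE 0.43, adjusted p = 0.000341). It, too, was highest in replicate C within stage 12.

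The other 9 of the 12 largest rises had log2 changes between 2.95 and 3.72, or 7.72-fold to 13.2-fold. *At2g21655*, annotated only as an expressed protein, stood at 9.08 and 8.44 at stage 13 and at 5.43, 5.65 and 5.59 at stage 12 (3.2, SE 0.45, adjusted p = 0.00214). Replicate C did not stand apart for this gene. *At1g06540* had 9.56 and 9.82 at stage 13 against 6.34, 6.18 and 6.72 at stage 12 (3.28, SE 0.35), and *At3g19690* had 8.50 and 9.0 against 5.8, 5.13 and 6.02 (3.1, SE 0.35). *At1g01980*, an FAD-binding domain gene that the study had chosen on these arrays, had 10.63 and 10.81 at stage 13 against 7.35, 7.44 and 8.41 at stage 12 (2.99, SE 0.52). The remaining 5 were *At3g56610*, *At3g24510*, *At1g30710*, *At2g20595* and *At1g68620*. All 12 were called when any 1 of the stage 12 arrays was left out, 7 without stage 13 replicate B and 6 without stage 13 replicate C. The 6 called in each of these fits were *SCPL38*, *At1g67640*, *At5g20390*, *At1g06540*, *At2g21655* and *At3g19690*.

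Falls reached further. *At1g66850* had log2 values of 6.45 and 5.22 at stage 13 against 12.99, 12.74 and 11.23 at stage 12 (log2 change -6.49, SE 1.05, 89.8-fold, adjusted p = 0.00485). The stages were far apart, and replicate C was the lowest of the stage 12 arrays. *At1g23240* had 5.29 and 5.8 at stage 13 against 12.03, 11.60 and 9.59 at stage 12 (-5.53, SE 0.88, 46.1-fold, adjusted p = 0.00471), and *LEA* (*At2g21490*), a late embryogenesis abundant gene, had 4.61 and 4.98 against 10.94, 10.04 and 7.46 (-4.68, SE 0.98, 25.7-fold, adjusted p = 0.0167). For both, replicate C stood between the stages.

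The 12 largest falls had log2 changes between -6.49 and -2.77. Several of them lie close together in locus number: *At1g23240*, *At1g23570* (-4.89), *At1g23600* (-3.0) and *At1g23670* (-3.10). *At5g61605* (-4.95), *At1g28375* (-3.95), *At1g30350* (-3.86), *At1g47980* (-3.72) and *At1g04670* (-2.77) were likewise lowest in replicate C within stage 12. The fall of *At5g55720* was the steadiest, with 7.24 and 7.16 at stage 13 against 10.96, 11.08 and 10.22 at stage 12 (-3.55, SE 0.51, adjusted p = 0.00228). It was the only one of the 12 called whichever array was left out. Without stage 12 replicate C all 12 were called, but only 5 without replicate A, 4 without replicate B, 2 without stage 13 replicate B and 1 without stage 13 replicate C.

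**Figure D2:**
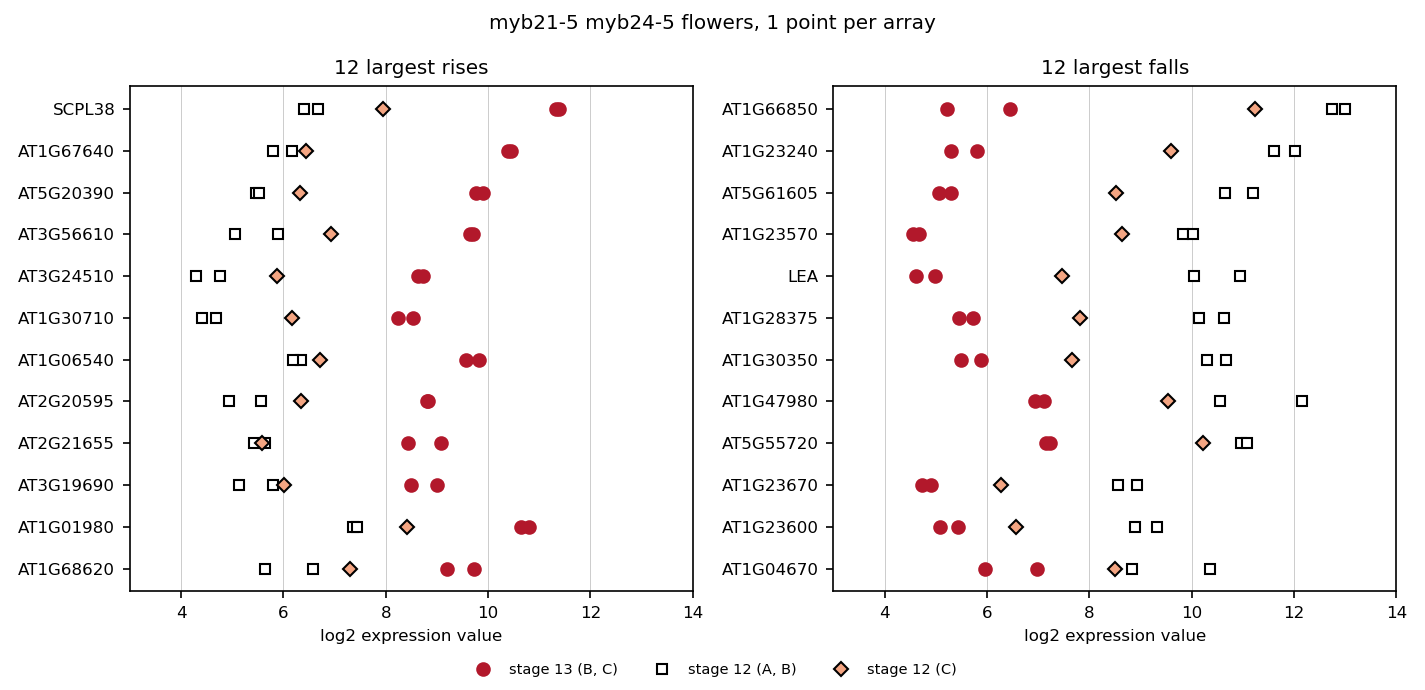
Log2 expression values of the 12 largest rises and the 12 largest falls in *myb21-5 myb24-5*, with 1 point per array; filled circles are stage 13 (B, C), open squares stage 12 (A, B) and diamonds stage 12 (C). No stage 13 point overlaps a stage 12 point of the same gene, and for *LEA* the diamond stands at 7.46, between stage 13 (4.61 and 4.98) and the other stage 12 arrays (10.94 and 10.04).

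Pollen genes made up the largest group of listed genes that rose in the mutant. Of 49 genes on a pollen list, 23 were measured, 10 of them named only through tables of genes that the study had chosen on these arrays. In *myb21-5 myb24-5*, 7 of the 23 were higher at stage 13 and none was lower at an adjusted p under 0.05, where 2.56% and 1.06% of all probe sets passed in these directions. Among the 7, *PRK4*, *CPK17*, *SYP131* and *CSLD1* were named only through those tables, and *ANX2*, *BUPS1* and *BUPS2* through the platform. Counts of this list are therefore not independent evidence of a direction. In wild type none was higher and 10 were lower, against 5.17% and 4.54% of all probe sets. The median log2 change of the 23 genes was 0.47 in the mutant and -0.77 in wild type, beside medians over all probe sets of 0.03 and -0.01.

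*PRK4* (*At3g20190*), a pollen receptor-like kinase, had log2 values of 9.79 and 9.81 at stage 13 against 7.06, 7.20 and 7.86 at stage 12 (2.43, SE 0.45, adjusted p = 0.00962). *CPK17* (*At5g12180*), a calcium-dependent protein kinase of pollen tubes, had 8.92 and 9.39 against 6.67, 6.58 and 7.11 (2.37, SE 0.42, adjusted p = 0.00734). In both genes the stages were separated by more than the range within either stage. Wild-type means at stage 13 and stage 12 were 9.09 and 8.80 for *PRK4*, and 8.54 and 8.10 for *CPK17*. The mutant means of both genes thus lay below wild type at stage 12 and above it at stage 13. The paired receptor kinases that keep the pollen tube intact rose as well. *ANX2* (*At5g28680*) changed by 2.2 (SE 0.49), *BUPS1* (*At4g39110*) by 2.02 (SE 0.32) and *BUPS2* by 1.41 (SE 0.35), and *ANX1* had 7.27 and 7.34 at stage 13 against 6.51, 5.94 and 6.62 at stage 12 without passing the test (0.95, adjusted p = 0.0903). *SYP131*, a plasma membrane syntaxin (1.90), and *CSLD1*, a cellulose synthase-like gene of pollen tubes (1.74), completed the 7. The stage change in the mutant minus that in wild type was positive for 5 of the 23 pollen genes, where 1.40% of all probe sets passed. Among the 7 this difference passed for *BUPS1* only (1.82).

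Other members of the same list did not move this way. *VEX1*, known from the vegetative cell of pollen, had 7.87 and 7.68 at stage 13 against 11.39, 10.29 and 9.88 at stage 12, and did not pass (-2.74, SE 0.79, adjusted p = 0.0734). *PRF5*, a pollen profilin, had 10.26 and 10.96 against 11.99, 10.51 and 10.79, and *ACT12*, a pollen actin, had 7.92 and 8.63 against 8.98, 7.75 and 8.03, so that the stages overlapped for both. The MADS-box genes *AGL66* and *AGL104*, regulators of pollen maturation, had changes of 0.26 and -0.79 and did not pass.

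The 7 pollen genes numbered 7 without stage 12 replicate C, 4 without replicate A or replicate B, 2 without stage 13 replicate B and 0 without stage 13 replicate C. For *BUPS1* and *CPK17* the adjusted p stayed at or below 0.0453 except without stage 13 replicate C, where it was 0.0789 and 0.123. Marker genes of the tapetum, the nurse tissue of pollen, stood beside these changes. Of 25 genes on that list 3 were measured, and none passed. *EXL5*, a pollen coat lipase, had 5.33 and 5.17 at stage 13 against 9.34, 8.53 and 6.25 at stage 12 (-2.79, SE 0.94, adjusted p = 0.12) but passed without stage 12 replicate C (-3.68, adjusted p = 0.0322) and with array weights (-3.0, adjusted p = 0.0127). *A9* had 4.96 and 4.77 against 6.51, 7.23 and 4.84, and *AMS*, a regulator of tapetum development, had 4.33 and 4.24 against 6.18, 5.58 and 4.34. Replicate C lay near stage 13 for *A9* and *AMS*, and replicates A and B lay above it. The part of these tapetum levels in the pollen result was not tested.

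Further genes of the pollen tube were grouped after their values were seen, so that their count restates the choice of genes. On a list of 17 pollen kinases and RALF signalling peptides, 8 were measured, 7 of them named only through the study's tables, and 6 were higher in the mutant, where 2.56% of all probe sets were: *CPK14* (2.51, SE 0.40), *PERK7* (2.43), *CPK24* (2.17), *RALFL26* (2.14), *PERK6* (2.00) and *PRK5* (1.43). *CPK14* had 8.68 and 8.87 at stage 13 against 5.74, 6.27 and 6.80 at stage 12 (adjusted p = 0.00471). In wild type none of the 8 was higher and 2 were lower. The 6 that rose had lower stage 12 means in the mutant than in wild type. These were 6.27 against 7.45 for *CPK14*, 8.73 against 9.99 for *CPK24* and 9.67 against 10.63 for *RALFL26*. At stage 13 the means of the 6 lay above those of wild type, as for *RALFL26* with 11.81 against 11.23. The difference of the changes passed for 2 of the 8, *PRK5* (1.81) and *PERK12* (1.83), where 1.40% of all probe sets passed. Of the 6 that rose, only *PRK5* differed from wild type by this test. *BCP1*, an anther-specific protein gene, was among the most highly expressed of these further genes, with 13.14 and 13.37 at stage 13 against 11.05, 10.88 and 11.87 at stage 12 (1.98, SE 0.42, adjusted p = 0.0186). Its means in wild type were 12.63 at stage 13 and 12.36 at stage 12. *PLIM2a*, an actin-bundling protein of pollen (2.09), *COBL10*, needed for pollen tube guidance (1.95), *EXO70H3*, an exocyst subunit (1.93), and *SFH12*, a Sec14-like protein (1.84), also rose. Of these, the 4 genes *RALFL26*, *CPK14*, *PERK7* and *EXO70H3* passed in at least 3 of the 5 fits that each left out an array, and none passed without stage 13 replicate C.

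Of 4 measured embryo sac genes, on a list made after their values were seen, 2 were higher in the mutant, where 2.56% of all probe sets were, so this count restates the choice of genes. These 2, *EC1.5* and *EC1.2*, encode small peptides that the egg cell secretes at fertilization. *EC1.5* (*At5g64720*) had 6.60 and 6.74 at stage 13 against 4.68, 4.55 and 5.13 at stage 12 (1.88, SE 0.40, adjusted p = 0.0199), and *EC1.2* (*At2g21740*) had 5.56 and 5.81 against 4.27, 4.13 and 4.36 (1.43, SE 0.31, adjusted p = 0.0215). The stages did not overlap for either gene, and both were low at stage 12. They changed by 1.56 and 1.38 in wild type, where both passed the test. The other 2, *AGL61* and *AGL80*, had changes of 0.14 and 0.20. *LCR80*, a cysteine-rich peptide gene (2.85, SE 0.59), and *RALFL28* (2.55, SE 0.51) rose in the mutant and changed by 2.75 and 2.61 in wild type. Both *EC1* genes and *LCR80* lost the call when any array but stage 12 replicate C was left out, with adjusted p between 0.0597 and 0.207, and *RALFL28* passed only without stage 12 replicate A or C.

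**Figure D3:**
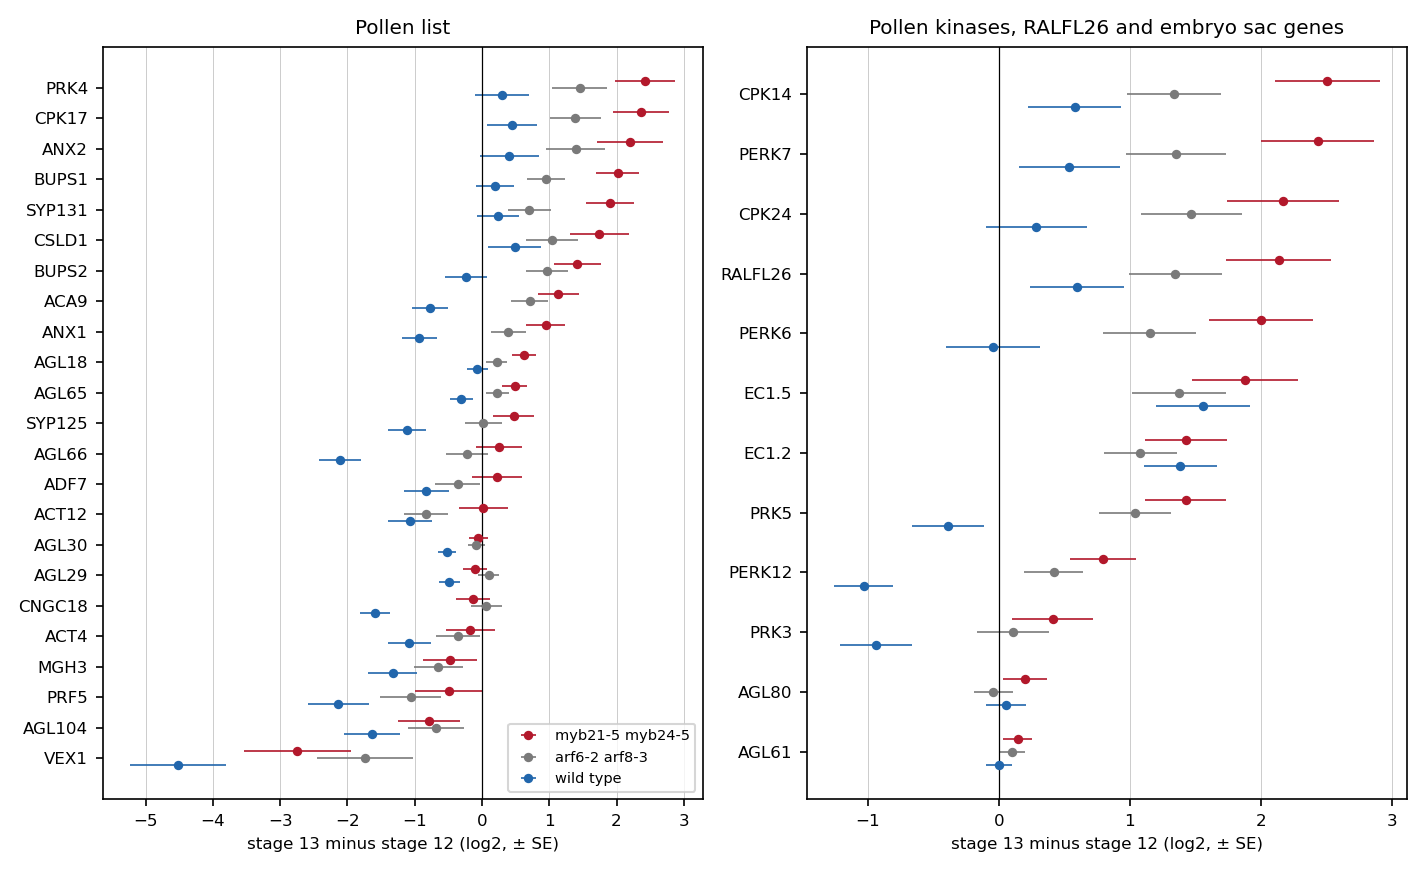
Log2 change from stage 12 to stage 13 (point ± SE from limma) of pollen list genes (left) and of pollen kinase, *RALFL26* and embryo sac genes (right) in *myb21-5 myb24-5*, *arf6-2 arf8-3* and wild type. Mutant points such as *PRK4* (2.43) and *CPK17* (2.37) lie right of the wild-type points (0.29 and 0.44), while for *EC1.5* (1.88 and 1.56) the 2 genotypes lie close together. The difference of the changes was not called for *PRK4*, *CPK17* or *EC1.5*.

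Other genes that rose include enzymes and regulators outside the pollen groups, most of them again chosen after their values were seen. *CWINV1* (*At3g13790*), a cell wall invertase that cleaves sucrose, had 7.18 and 7.36 at stage 13 against 4.88, 4.99 and 5.43 at stage 12 (2.17, SE 0.24, 4.5-fold, adjusted p = 0.00043). It passed whichever array was left out and changed by 2.03 in wild type. *BGLU36*, a beta-glucosidase gene, had 7.24 and 7.17 against 4.36, 4.27 and 5.02 (2.65, SE 0.26, adjusted p = 0.000185), *HB21*, a homeodomain transcription factor, had 8.41 and 8.85 against 5.87, 5.90 and 6.52 (2.53, SE 0.38, adjusted p = 0.00352), and *MAPKKK20*, a protein kinase, had 9.28 and 9.34 against 6.37, 7.05 and 7.53 (2.32, SE 0.32, adjusted p = 0.00197). *BGLU36* and *MAPKKK20* passed whichever array was left out, and *HB21* did except without stage 13 replicate C (adjusted p = 0.0789). *NAC047*, a senescence-associated transcription factor, rose by 1.78 (SE 0.27) and *HIS1-3*, a drought-induced linker histone, by 1.82 (SE 0.36). Smaller rises were found for *EXPA4*, a cell wall loosening expansin (0.91, SE 0.15), *GID1A*, a gibberellin receptor (0.83), and *BEE3*, a growth-promoting bHLH factor (0.80). The call of *NAC047* was lost without stage 13 replicate C (adjusted p = 0.0833) and that of *EXPA4* without stage 13 replicate B (0.0749). *HIS1-3* and *BEE3* passed in 2 of the 5 fits with an array left out and *GID1A* in 1, that without stage 12 replicate C, and for these 3 genes the lost calls had adjusted p between 0.0571 and 0.297.

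Genes that fell beyond the largest changes included *PAL4* (*At3g10340*), a phenylalanine ammonia-lyase at the entry to phenylpropanoid synthesis, with 7.36 and 7.48 at stage 13 against 10.14, 9.90 and 9.02 at stage 12 (-2.27, SE 0.42, adjusted p = 0.00994). *GSTF12*, which carries anthocyanins to the vacuole, had 5.82 and 6.47 against 7.95, 8.16 and 8.10 (-1.92, SE 0.27, adjusted p = 0.00204). Both separated the stages, and *GSTF12* passed whichever array was left out. *CUS2*, a cutin synthase, was the only listed gene that fell, with 11.32 and 10.57 against 13.14, 13.13 and 12.54 (-2.0, SE 0.39, adjusted p = 0.0124). *TGA9*, a bZIP factor needed for anther development (-1.16, SE 0.18), *LOG8*, a cytokinin-activating enzyme (-1.13, SE 0.23), and the cation exchangers *CHX19* (-2.31) and *CHX20* (-1.03) also fell. These genes, other than *CUS2* and *PAL4*, were chosen after their values were seen. Without stage 13 replicate B the calls of *PAL4* and *TGA9* were lost (adjusted p = 0.0902 and 0.0547), and without stage 13 replicate C those of *PAL4* and *CUS2* (0.108 and 0.187). *CUS2* was also lost without stage 12 replicate A or B (0.0504 and 0.0538). *LOG8* and *CHX19* passed only without stage 12 replicate C, and *CHX20* passed in none of these fits (adjusted p between 0.0531 and 0.236).

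The transcripts of the mutated genes themselves were measured in every mutant array. One *MYB21* (*At3g27810*) probe set had 11.85 and 11.95 at stage 13 against 10.62, 10.96 and 11.42 at stage 12 (0.90, SE 0.30, adjusted p = 0.11), and the other had 8.90 and 8.76 against 7.96, 8.29 and 8.22 (0.67, SE 0.27, adjusted p = 0.181). *MYB24* (*At5g40350*) had 9.85 and 9.07 at stage 13 against 8.10, 9.23 and 9.29 at stage 12 (0.59, SE 0.33, adjusted p = 0.362). The stages were separated for both *MYB21* probe sets and overlapped for *MYB24*, and none passed the test. A stop codon need not lower an mRNA, and the position of the probes relative to the *myb24-5* insertion was not looked up, so the alleles are not checked by these values. Wild type had a mean *MYB24* value of 8.53 at stage 13 and 9.90 at stage 12 (-1.37, adjusted p = 0.00832). The stage change of *MYB24* in the mutant minus that in wild type was 1.96 (SE 0.45, adjusted p = 0.0341). *ARF6* had 9.48 and 9.21 at stage 13 against 9.5, 9.73 and 9.43 at stage 12 of the mutant, and *ARF8* lay between 9.69 and 10.04 on the 5 arrays, with both values at stage 13 inside this range (-0.21 and -0.02, neither passed). *MYB57*, the closest relative on the list, had 7.96 and 8.25 at stage 13 against 5.62, 6.78 and 7.36 at stage 12 and did not pass (1.52, SE 0.57, adjusted p = 0.159) except with the replicate block (1.14, adjusted p = 0.0281), while in wild type it changed by 2.38.

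The same stages were then compared in wild type, whose arrays are not shared with the mutant. There, 845 probe sets (3.71%) were called, 444 higher (1.95%) and 401 lower (1.76%) at stage 13. Of the 370 probe sets that rose in *myb21-5 myb24-5*, 84 were also called higher in wild type (22.7% of the mutant's and 18.9% of the wild-type calls). Of the 105 that fell, 69 were also called lower in wild type (65.7% and 17.2%). A further one, *At2g47550*, was called in opposite directions. Among the 370, 79.7% had the same sign in wild type and their median log2 change there was 0.37, and among the 105, 93.3% had the same sign, with a median of -1.76. The share of all probe sets with the same sign was not counted. The 444 probe sets that rose in wild type had a median log2 change of 0.40 in the mutant against 1.47 in wild type, and the 401 that fell had -0.57 against -1.55.

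**Figure D4:**
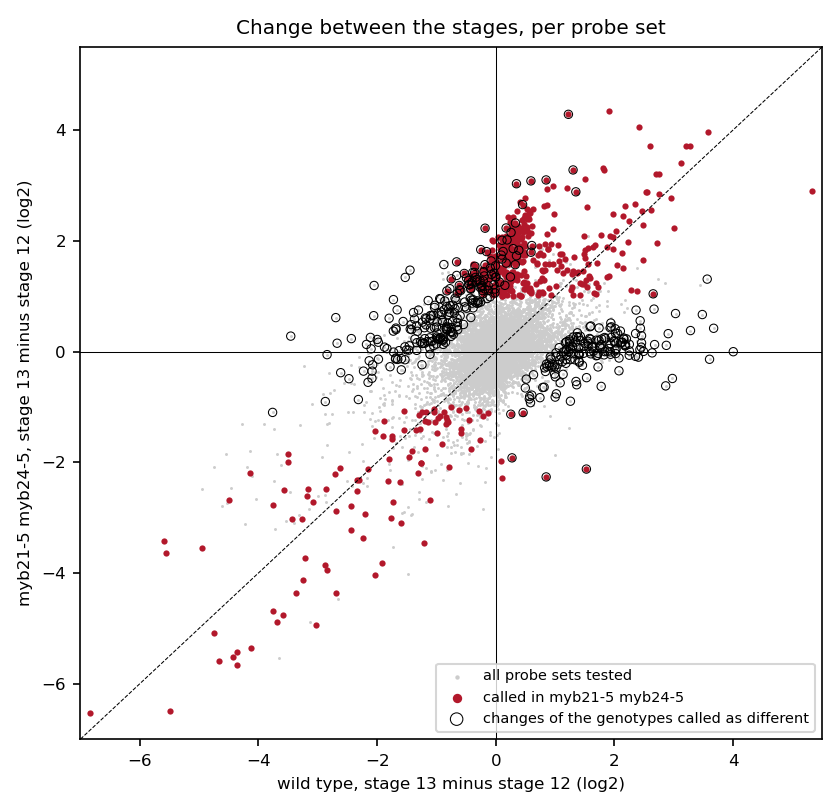
Log2 change from stage 12 to stage 13 of every probe set in *myb21-5 myb24-5* (vertical axis) against wild type (horizontal axis); red points are called in the mutant, open circles mark probe sets whose changes were called as different, and the dashed line marks equal changes. *CYP71B31* lies far right of the line, at -0.00 in the mutant and 4.00 in wild type, whereas *At1g67640* lies above it, at 4.28 in the mutant and 1.23 in wild type.

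The difference itself, the stage change in *myb21-5 myb24-5* minus that in wild type, was called for 401 probe sets (1.76%), 233 positive (1.02%) and 168 negative (0.739%). Among the 168, 140 were called higher in wild type and not called in the mutant, and 4 were called lower in the mutant only. Among the 233, 87 were called lower in wild type and not in the mutant, 71 were called higher in the mutant and not in wild type, and for 73 neither change was called. Without one array of the mutant, the positive calls numbered between 62 (without stage 13 replicate C) and 253, and the negative calls between 89 (without stage 13 replicate B) and 168. Positive calls also numbered 104 without stage 13 replicate B and 123 without stage 12 replicate B of the mutant, and 138, 132 and 142 without wild-type stage 12 replicate A, stage 13 replicate B and stage 13 replicate C. Negative calls numbered 94 without mutant stage 13 replicate C.

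Most of the 8 largest negative differences belonged to genes that rose in wild type and had similar values at both stages of the mutant. *CYP71B31* (*At3g53300*), a cytochrome P450, had 3.98 and 4.28 at stage 13 and 4.09, 4.09 and 4.23 at stage 12 of the mutant, and means of 12.49 and 8.48 in wild-type stage 13 and stage 12 flowers (difference of changes -4.01, SE 0.34, adjusted p = 3.11e-05). *XTH19*, a xyloglucan endotransglucosylase/hydrolase of growing cell walls, had 6.15 and 6.71 against 5.87, 6.06 and 6.09 in the mutant, and means of 11.42 and 7.75 in wild type (-3.25, SE 0.42). In both, every mutant array stayed below the wild-type means of both stages. The mutant values of *CYP71B31* lay far below the array medians of 7.71 to 7.78, so its difference mostly restates the rise in wild type. *EXLA1*, an expansin-like gene, had 6.59 and 7.06 against 8.58, 6.78 and 6.97 in the mutant, with overlapping stages, and rose by 2.87 in wild type (-3.49). *At1g07590* (-2.76), *AtS40-3*, a gene of the senescence-linked S40 family (-2.66), and *At1g35190*, a putative 2-oxoglutarate-dependent oxygenase (-2.58), followed the same pattern.

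*At2g47550* and *PAL4* differed in another way, because they fell in the mutant. *At2g47550* had 5.32 and 4.96 at stage 13 against 7.86, 7.60 and 6.33 at stage 12 in the mutant (-2.12, SE 0.43, adjusted p = 0.0146), and rose by 1.53 in wild type (adjusted p = 0.0203), a difference of -3.65. *PAL4* changed by 0.85 in wild type without passing, a difference of -3.12, and its difference was called except without stage 13 replicate B or C (adjusted p = 0.0537 and 0.0518). The other 7 negative differences were called whichever mutant array was left out.

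The 8 largest positive differences belonged mostly to genes that fell in wild type and did not pass in the mutant. *KCS17*, which elongates very-long-chain fatty acids, had 5.94 and 5.86 at stage 13 against 5.44, 5.62 and 5.8 at stage 12 of the mutant, and means of 7.0 and 10.46 in wild type (3.73, SE 0.61, adjusted p = 0.00495). *IMS2*, an enzyme of methionine chain elongation in glucosinolate synthesis (2.82), and *ABCG20*, a transporter linked to suberin (2.79), likewise had low values in the mutant at both stages, between 4.67 and 5.08 for *IMS2* and between 5.81 and 5.99 for *ABCG20*. *BSMT1*, which methylates benzoate and salicylate to scent esters, was high in the mutant instead. It had 12.07 and 12.14 at stage 13 and 10.46, 10.83 and 11.44 at stage 12, without passing the test (1.19, adjusted p = 0.168), and means of 6.47 and 8.52 in wild type (difference 3.24, SE 0.61). *CORI3*, a jasmonate-induced cystine lyase (2.70), *ZW9* (2.91) and *At1g75160* (2.86) were similar, and *At1g67640*, described above, differed by 3.06. Without stage 13 replicate B the difference was no longer called for *BSMT1*, *At1g67640*, *ZW9*, *ABCG20* and *CORI3*, and without stage 13 replicate C for *BSMT1*, *At1g67640*, *ZW9*, *At1g75160* and *ABCG20* (adjusted p between 0.0541 and 0.153). The call of *ZW9* was also lost without stage 12 replicate A or B of the mutant and without 4 of the 6 wild-type arrays.

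Among the measured genes of the jasmonate lists, only *JAZ8* passed between the stages of the mutant. Most of the jasmonate genes measured were genes that the study itself had chosen on these arrays, so their values are not independent evidence of a direction. Of 16 genes of jasmonate synthesis 6 were measured, and none passed in the mutant. In wild type 5 were lower, where 4.54% of all probe sets were. The difference of the changes was positive for 4 of the 6 at an adjusted p under 0.05, where 1.40% of all probe sets passed. *LOX4*, a lipoxygenase at the start of the pathway, had 9.48 and 9.51 at stage 13 against 8.78, 8.90 and 9.54 at stage 12 of the mutant, and means of 6.03 and 7.71 in wild type (difference 2.11, SE 0.23, adjusted p = 0.000336). *LOX3* differed by 1.73, and *OPR3*, which reduces the jasmonate precursor, by 0.95. *LOX2* differed by 0.90, and its mutant values of 13.60 and 13.48 at stage 13 overlapped with 13.21, 13.46 and 13.54 at stage 12.

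Of 17 genes of jasmonate signalling 12 were measured. In the mutant 1 was higher, *JAZ8*, a repressor, with 8.28 and 8.55 at stage 13 against 7.86, 7.90 and 7.86 at stage 12 (0.54, SE 0.14, adjusted p = 0.041), and this call was lost when any array was left out (adjusted p between 0.0658 and 0.36). In wild type 1 was higher and 6 were lower. Over all probe sets 2.56% were higher in the mutant, and 5.17% were higher and 4.54% lower in wild type. The difference was positive for 6, where 1.40% of all probe sets passed. *JAZ5* had 10.94 and 10.77 at stage 13 against 10.44, 10.72 and 10.75 at stage 12 of the mutant, and means of 7.55 and 9.55 in wild type (difference 2.21, adjusted p = 1.81e-05). All 12 had a log2 change above 0 in the mutant, with a median of 0.32 against -0.49 in wild type. *MYC2*, the central activator of jasmonate response, had 9.69 and 10.03 against 8.87, 9.08 and 9.14 and did not pass (0.83, adjusted p = 0.0651), although its stages did not overlap. The stages did not overlap, with stage 13 higher, for 7 of the 12, beside 20.9% of all probe sets. Of 12 genes of jasmonate turnover and response 7 were measured, and none passed in the mutant. In wild type 3 were lower, where 4.54% of all probe sets were. The median log2 change of the 7 was 0.64 in the mutant and -0.57 in wild type. For 5 of the 7, stage 13 lay above stage 12 without overlap in the mutant, beside 20.9% of all probe sets. *ST2A*, a hydroxyjasmonate sulfotransferase, had 9.46 and 8.62 at stage 13 against 8.07, 8.51 and 7.85 at stage 12 (0.90, adjusted p = 0.107). The difference from wild type passed for 2 of the 7, *BSMT1* and *CORI3*, described above.

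No auxin response gene passed in the mutant. None of 13 measured *Aux/IAA* repressor genes and none of 13 *SAUR* growth genes did. In wild type 6 *Aux/IAA* genes were higher, and 7 *SAUR* genes were higher and 2 lower, beside 5.17% higher and 4.54% lower over all probe sets. All 13 *SAUR* and 6 of the 13 *Aux/IAA* genes were named through the study's tables, so their values are not independent evidence of a direction. The difference from wild type passed for *IAA6* (-2.30) and *IAA19* (-1.79), and for the *SAUR* genes *SAUR68* (-2.51), *SAUR9* (-2.26), *SAUR25* (1.90) and *SAUR70* (1.49). *SAUR68* had 4.02 and 3.96 at stage 13 against 4.02, 4.16 and 4.09 at stage 12 of the mutant, and means of 8.96 and 6.56 in wild type. These mutant values lay far below the array medians of 7.71 to 7.78, so the difference mostly restates the rise in wild type. *SAUR9* had 6.90 and 6.60 against 5.46, 4.94 and 5.92 in the mutant, with the stages apart but short of the test (1.31, adjusted p = 0.0511), and it passed after adjustment under other settings, namely without stage 12 replicate C (adjusted p = 0.0265), with the replicate block (0.0287), with array weights (0.00401), after quantile normalization (0.0471) and with low probe sets left out (0.0448). *SAUR25* had 7.93 and 8.0 at stage 13 against 6.61, 6.98 and 7.43 at stage 12 of the mutant (0.96, adjusted p = 0.0812) and passed without stage 12 replicate C (0.0382) and with the replicate block (0.0399). *IAA19* had 8.22 and 8.35 against 9.28, 8.96 and 8.90 in the mutant (-0.76, adjusted p = 0.182) and rose by 1.02 in wild type.

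None of 13 measured *XTH* genes, 5 of them named only through the study's tables, passed in the mutant. Log2 changes of the 13 there lay between -1.0 and 0.65. The stages did not overlap for 5 with stage 13 higher and for 4 with stage 13 lower, beside 20.9% and 17.7% of all probe sets. In wild type 8 were higher and 1 lower, beside 5.17% and 4.54% of all probe sets. The difference was negative for 4, where 1.05% of all probe sets passed in this direction, *XTH19*, *XTH7* (-2.44), *XTH18* (-2.24) and *XTH4* (-1.40). *XTH7* had 7.87 and 8.04 at stage 13 against 7.97, 8.15 and 8.00 at stage 12 of the mutant, and means of 12.23 and 9.88 in wild type. Of 15 expansins 2 were higher in the mutant, *EXPA4* and *EXPA11*, where 2.56% of all probe sets were. Of the 15, 4 were named only through the study's tables, *EXPA11* among them. *EXPA11* had 10.83 and 10.62 at stage 13 against 8.79, 9.26 and 9.68 at stage 12 (1.48, SE 0.31, adjusted p = 0.0183) and means of 12.13 and 12.31 in wild type, so the mutant values at both stages lay below the wild-type means. Its adjusted p was between 0.0573 and 0.145 when any array but stage 12 replicate C was left out. *EXPA1* fell by 1.15 in wild type and changed by 0.18 in the mutant (difference 1.33, adjusted p = 0.00314).

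Of 10 measured floral terpene genes, 2 were higher in the mutant and 6 in wild type, beside 2.56% and 5.17% of all probe sets. Of the 10, 7 were named only through the study's tables, including *TPS04* and *TPS21*, so these counts are not independent evidence of a direction. The difference of the changes was negative for 2, where 1.05% of all probe sets passed in this direction. *TPS04*, a geranyllinalool synthase, had 9.36 and 9.24 at stage 13 against 6.92, 7.79 and 8.70 at stage 12 of the mutant (1.49, SE 0.35, adjusted p = 0.0315), and *TPS21*, the caryophyllene synthase, had 6.62 and 6.25 against 4.72, 5.77 and 5.74 (1.03, SE 0.25, adjusted p = 0.0348). The mean of *TPS21* in wild type was 11.60 at stage 13 and 10.18 at stage 12, far above both mutant stages. The call of *TPS04* was lost when any array but stage 12 replicate C was left out, and that of *TPS21* without stage 12 replicate A or either stage 13 array (adjusted p between 0.0523 and 0.238). *TPS02*, another terpene synthase gene that is not on this list and was chosen after its values were seen, changed by 1.28 in the mutant (adjusted p = 0.037) and passed only without stage 12 replicate C when single arrays were left out. The negative differences were those of *CYP71B31*, given above, and *CYP76C3*. *CYP76C3*, a linalool-oxidizing P450, had 6.27 and 6.26 against 6.17, 6.06 and 6.24 in the mutant and rose by 2.19 in wild type (difference -2.08). *SWEET9*, the sucrose exporter of nectaries, had 6.24 and 6.45 against 5.98, 5.98 and 6.31 in the mutant, and means of 12.76 and 10.81 in wild type (difference -1.70, adjusted p = 0.0227). It was the only one of 5 measured nectary genes whose difference passed, and none of the 5 passed in the mutant. Of the 5, 3 were named only through the study's tables.

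**Figure D5:**
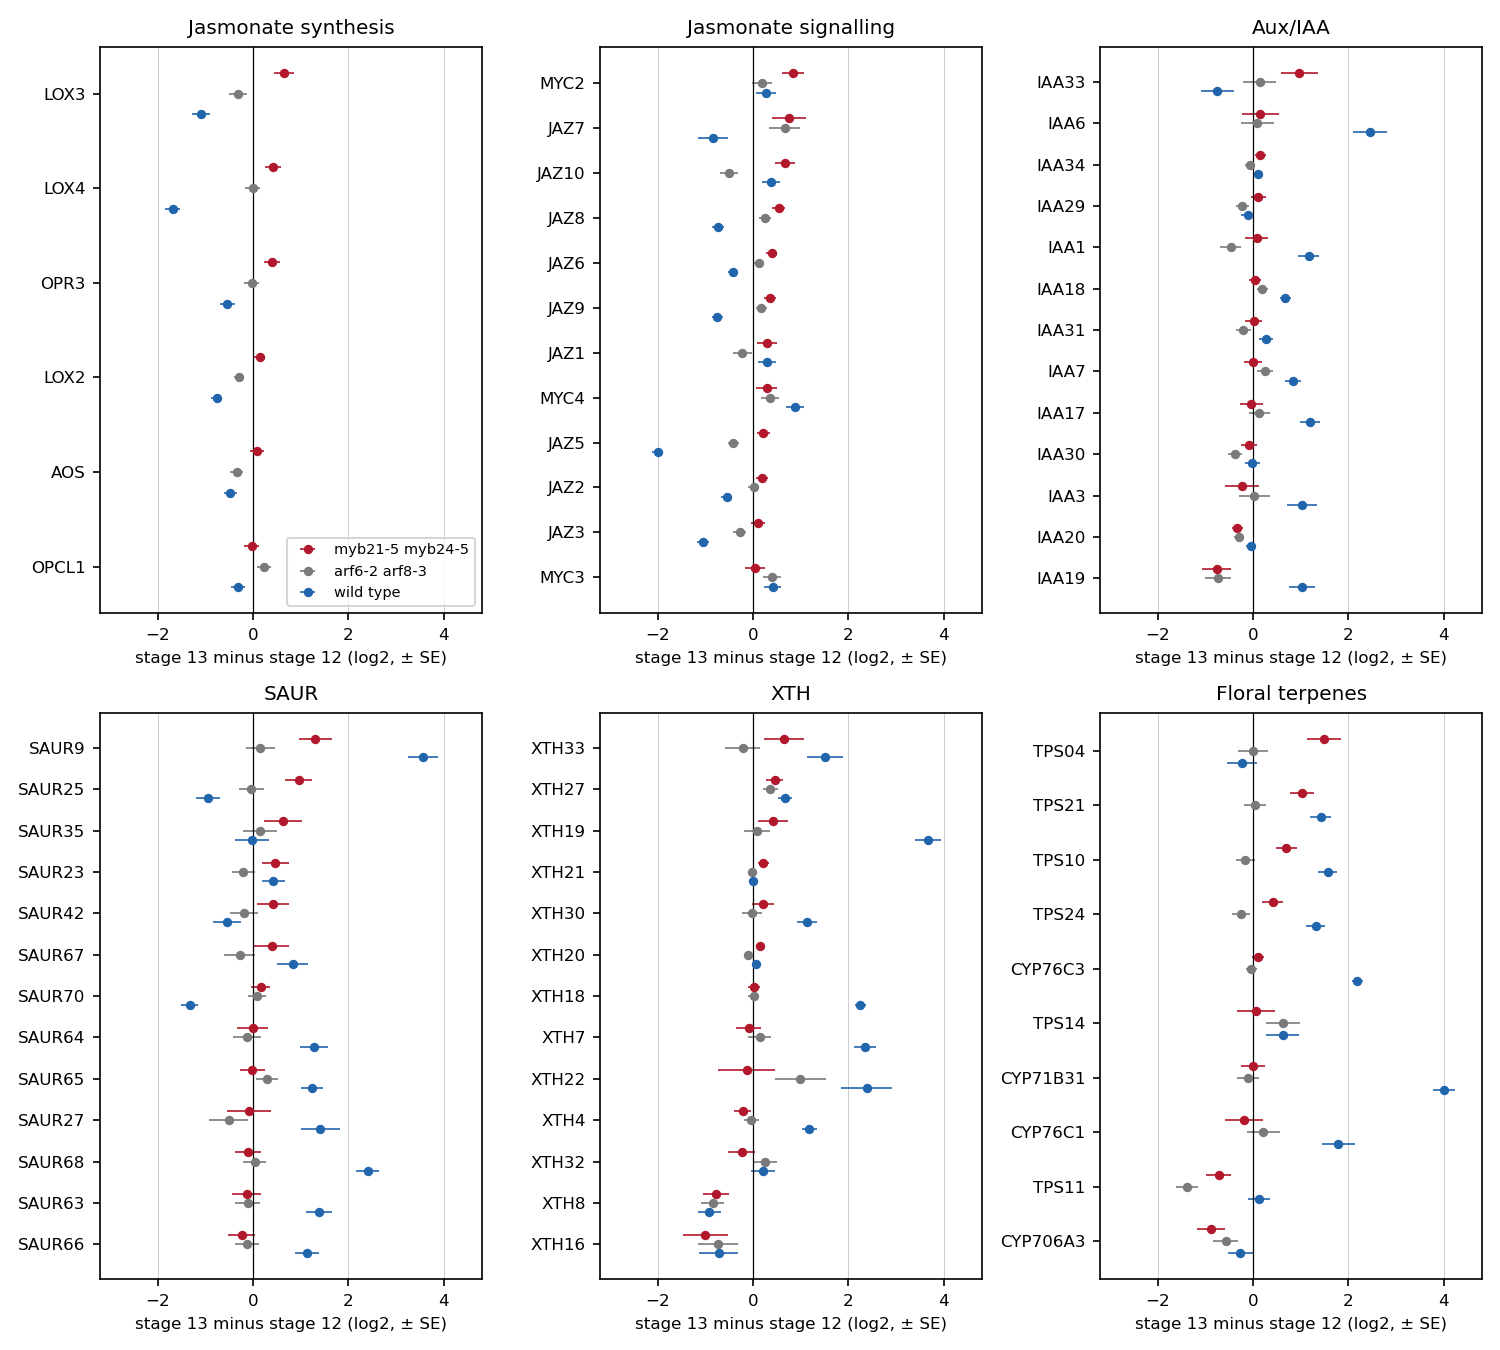
Log2 change from stage 12 to stage 13 (point ± SE from limma) of the measured jasmonate, *Aux/IAA*, *SAUR*, *XTH* and floral terpene genes in *myb21-5 myb24-5*, *arf6-2 arf8-3* and wild type. *JAZ5* lies at 0.22 in the mutant and -2.0 in wild type, and *XTH7* at -0.09 and 2.36.

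Senescence genes were counted in the same way. In the mutant 1 of 8 measured genes was higher, *NAC047*, and in wild type 6 were, beside 2.56% and 5.17% of all probe sets. Of the 8, 4 were named only through the study's tables, *NAC047* among them. The difference passed for *SAG29* (-1.62), *WRKY53* (-1.69) and *WRKY6* (-0.86). *WRKY53*, a transcription factor of early leaf senescence, had 5.4 and 5.57 at stage 13 against 5.11, 5.12 and 5.23 at stage 12 of the mutant and rose by 2.02 in wild type. Over all 30 gene lists, 206 genes were measured of 546, of which 17 were higher and 1 was lower in the mutant, beside 2.56% and 1.06% of all probe sets. Of the 206, 107 were named only through tables of genes that the study had chosen on these arrays. The total is therefore not independent evidence of a direction. Of the 28 lists with a measured member, 18 had none that passed. Among these were sugar starvation (5 measured), aliphatic glucosinolates (7), photosynthesis (8, with changes between -0.06 and 0.04) and cell division (3). The 17 numbered 22 without stage 12 replicate C, 8 without replicate A, 9 without replicate B, 4 without stage 13 replicate B and 2 without stage 13 replicate C.

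The identity of the tissue could be checked only in part. None of 12 floral organ identity genes and none of 6 early seed genes had a probe set named here. *CRC*, a carpel and nectary gene, had 10.89 and 10.16 at stage 13 against 9.74, 9.87 and 9.98 at stage 12, and the stem cell marker *CLV3* lay between 5.04 and 5.27 on all 5 arrays.

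In *arf6-2 arf8-3*, the other double mutant, 189 probe sets (0.831%) were called between the stages, 103 higher (0.453%) and 86 lower (0.378%). Of the 370 that rose in *myb21-5 myb24-5*, 60 were also called higher there (16.2% of the 370 and 58.3% of the 103), and of the 105 that fell, 40 were also called lower (38.1% and 46.5%). The sign was the same for 96.2% of the 370 and for 96.2% of the 105, with median log2 changes of 0.94 and -1.49 in *arf6-2 arf8-3*. The share of all probe sets with the same sign was not counted. Pollen genes were among those with a shared sign, such as *PRK4* (2.43 in *myb21-5 myb24-5* and 1.45 in *arf6-2 arf8-3*) and *CPK17* (2.37 and 1.39), although neither passed in *arf6-2 arf8-3* (adjusted p = 0.0703 and 0.062). Of the 23 measured genes of the pollen list none passed in *arf6-2 arf8-3*. Their median log2 change was 0.10 there and 0.47 in *myb21-5 myb24-5*. *At1g67640* passed in both, at 4.28 and 1.78.

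The changes of these 2 mutants differed by this rule for 2 probe sets only (0.00879%), both positive and neither named for a gene. The first, 252611_at, had 8.91 and 9.0 at stage 13 against 7.07, 6.82 and 7.56 at stage 12 of *myb21-5 myb24-5*, and means of 6.19 and 6.33 in *arf6-2 arf8-3* (difference 1.95, adjusted p = 0.0202). The second, 253939_at, had 7.22 and 7.25 against 5.44, 5.41 and 5.48, and means of 6.30 and 5.76 in *arf6-2 arf8-3* (1.25, adjusted p = 0.0202). The stages of the mutant did not overlap for either. Both calls were lost without any 1 of the mutant arrays but stage 12 replicate C, without which 12 probe sets were called, and with single *arf6-2 arf8-3* arrays left out the count was between 0 and 4.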

How the data were processed

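According to the study's methods, the authors used MAS5 for scanning and RMA in Genespring for normalisation, and they deposited log2 expression values, 1 per probe set, which were used as they are. No genome build is given and no coordinates were used. Of 22810 probe sets, 64 control probe sets were left out. The platform table names 13513 for 1 gene and 503 for several, a further 512 were named through the study's tables, and 8218 have no name here. Where a gene has several probe sets, the one with the highest mean is given.

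A linear model with 6 group means was fitted to 17 arrays by lmFit and moderated by eBayes (limma 3.58.1 in R 4.3.3, with statmod 1.5.0), with contrasts for each stage change and their differences (11 residual degrees of freedom). Values were two-sided and Benjamini-Hochberg adjusted. A call is an adjusted p under 0.05 and at least 2-fold. Members of gene lists were counted, and are spoken of as called, whatever their fold where the adjusted p was below 0.05. *JAZ8*, *EXPA4*, *GID1A* and *BEE3* passed in this way at less than 2-fold. For single named genes, the closing section counts calls with the fold threshold, unless it was dropped. The fit was also run on simulated arrays, built from the mean and spread of each probe set in the real arrays. Its outcome is not reported here. Members and lists were chosen with earlier results of these data known. Named genes are the 4 studied genes, the 12 largest rises and falls among called probe sets of 1 gene whose stages do not overlap, the 8 largest differences per direction, and up to 5 called members of each list (2 where none was called). Replicate letters were checked as pairs. The alternatives are given in the closing section. The study's methods name a t-test between genotypes, which was run between the stages as an alternative.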

Additional observations from a re-analysis of the deposited data

Results flagged for a closer look

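The change from stage 12 to stage 13 in *myb21-5 myb24-5* differed from that in wild type for 233 probe sets with a positive and 168 with a negative difference, and from that in *arf6-2 arf8-3* for 2 probe sets. In each case the difference itself was tested in the limma fit, with an adjusted p below 0.05 and a size of at least 2-fold. Differences that passed at a smaller size, such as those of *OPR3*, *LOX2* and *WRKY6*, are given with the results and not repeated here. All values below are log2 changes in *myb21-5 myb24-5* minus those in the other genotype.

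Among the studied genes and the largest rises, the change exceeded that in wild type for *MYB24* (1.96), *At1g67640* (3.06), *At1g06540* (1.98) and *At3g19690* (2.25). The 8 largest positive differences included *KCS17* (3.73), *BSMT1* (3.24), *ZW9* (2.91), *At1g75160* (2.86), *IMS2* (2.82), *ABCG20* (2.79) and *CORI3* (2.70). The 8 largest negative ones were those of *CYP71B31* (-4.01), *At2g47550* (-3.65), *EXLA1* (-3.49), *XTH19* (-3.25), *PAL4* (-3.12), *At1g07590* (-2.76), *AtS40-3* (-2.66) and *At1g35190* (-2.58).

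Jasmonate genes with a positive difference were *LOX3* (1.73), *LOX4* (2.11), *JAZ3* (1.16), *JAZ5* (2.21), *JAZ8* (1.27) and *JAZ9* (1.11). Auxin genes differed both ways, with *IAA6* (-2.30), *IAA19* (-1.79), *SAUR9* (-2.26) and *SAUR68* (-2.51) negative, and *SAUR25* (1.90) and *SAUR70* (1.49) positive. Wall genes were *EXPA1* (1.33), *XTH4* (-1.40), *XTH7* (-2.44) and *XTH18* (-2.24), scent and nectar genes were *CYP76C3* (-2.08) and *SWEET9* (-1.70), and senescence genes were *SAG29* (-1.62) and *WRKY53* (-1.69).

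Pollen genes had positive differences, namely *AGL66* (2.37), *ACA9*, a calcium pump (1.91), *ANX1* (1.88), *BUPS1* (1.82) and *CNGC18*, a calcium channel (1.46), as did *PERK12* (1.83) and *PRK5* (1.81) of the pollen kinases. The remaining genes were *COR15A*, a cold-induced gene (1.28), the gibberellin-regulated *GASA4* (1.63) and *GASA1* (-1.23), the lipid genes *KCS1* (-1.22) and *AAE11* (-1.58), the petal growth gene *BPE* (1.17), and *MAPKKK20* (1.99), *BGLU36* (2.2), *GSTF12* (-2.2) and *LOG8* (-1.39). The probe sets 252611_at and 253939_at differed from wild type by 1.96 and 1.2 and from *arf6-2 arf8-3* by 1.95 and 1.25.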

How the results depend on the processing

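Of 111 counts under other settings, 56 stayed within 1.5 times, and of 1683 values of named genes 1434 kept their direction and side of the threshold, 196 lost the call, 23 gained one and 30 changed sign. Fits that leave 1 stage 13 array assume that it varies like the other groups. Leaving out wild-type or *arf6-2 arf8-3* arrays was chosen after seeing the data. The cause of these shifts was not tested, other than where fewer arrays or another threshold were used.

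For the 370 higher and 105 lower probe sets of the mutant, dropping the fold threshold gave 583 and 240, an adjusted p under 0.01 gave 149 and 31, and the methods' t-test gave 420 and 124 at their threshold and 0 and 0 after Benjamini-Hochberg adjustment. Array weights gave 244 lower. Leaving out single arrays gave 54 to 428 higher and 9 to 227 lower. For the difference from wild type, 233 positive and 168 negative, an adjusted p under 0.01 gave 60 and 81, and single arrays left out gave 62 to 253 and 89 to 213. The 233 became 411 with only these 2 genotypes in the fit, 71 with the 18 arrays and 497 with array weights. For the difference from *arf6-2 arf8-3*, 2 probe sets, the counts were 0 with 2 genotypes, 0 with 18 arrays, 0 at an adjusted p under 0.01, 30 with array weights, 4 after quantile normalization and 0 to 12 with an array left out. List members numbered 2 to 22 higher and 0 to 3 lower with an array left out.

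The stages share only the letters B and C, and deviations of arrays with the same letter correlated at 0.34 (B) and 0.28 (C). The correlation was -0.28 for stage 13 B with stage 12 C and -0.34 for stage 13 C with stage 12 B. The deviations of the 2 stage 13 arrays from their mean mirror each other, so these values cannot decide whether the letters are pairs. The named genes *MYB57*, *SAUR9*, *SAUR25* and *DIN2* gained a call with the block. With the replicate block, 448 were higher and 168 lower in the mutant (359 and 101 of them called without it), 459 and 271 differed from wild type and 24 from *arf6-2 arf8-3*.

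With the left-out array kept, changes in sign were found for *MYB21* (-1.38 and -0.68), *MYB24* (-1.27), *LOX3* (-0.18), *LOX4* (-0.78), *JAZ8* (-0.56), *BSMT1* (-0.56), *ST2A* (-0.03), *IAA33* (-0.01), *ARF16* (-0.22), *CRC* (-0.37), *CWINV4* (-0.50), *ADPG1* (0.02), *PSBY* (0.03) and *CLV3* (-0.06). Quantile normalization turned *LHCB4.3* (0.01), *PSBY* (0.02) and *CLV3* (-0.04). With an array left out the ranges crossed 0 for *CLV3* (-0.02 to 0.10), *ARF8* (-0.14 to 0.11), *LHCB4.3* (-0.22 to 0.10), *PSBY* (-0.16 to 0.05), *EIN3* (-0.18 to 0.23), *BCAT4* (-0.15 to 2.07) and *MYB29* (-0.20 to 1.3). None of these genes was called between the stages in the mutant at 2-fold. Precision is limited by the number of arrays.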
